A study of Paeonia suffruticosa with 12 samples.

Results

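The transcriptome of tree peony "FengDan" seedlings grown from seed embryos was compared between a medium with activated carbon and polyvinyl pyrrolidone together (AC and PVP) and a medium with polyvinyl pyrrolidone alone (PVP). The comparison took 6 of the 12 libraries of the study, the 3 whose treatment label reads AC and PVP and the 3 whose label reads PVP. AC and PVP seedlings had 0.9 g/L activated carbon and 2.5 g/L PVP, and PVP seedlings had 2 g/L PVP and no carbon. The other 6 libraries came from seedlings with 0.9 g/L activated carbon alone (AC) and from seedlings with neither agent (CK), 3 of each. Because the AC and PVP medium also held 0.5 g/L more PVP, the carbon and the extra PVP cannot be told apart in this comparison. The labels give roots, stems and leaves, taken 30 days after rooting, for all 4 groups, while the study's methods name leaves and roots. Against that label, the study describes seedlings without carbon (PVP and CK) as germinated but not rooted, and seedlings of both carbon media as rooted, so the presence of roots cannot be told apart from the medium in any value below, those of root genes included. Each library pooled 10 embryo seedlings, so the spread between libraries is that between pools. In such mixed tissue, a smaller share of a cell type and less RNA per cell cannot be told apart.

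Both agents are used in tissue culture against browning, in which phenolic compounds released from cut or germinating tissue are oxidised to dark quinones by enzymes such as polyphenol oxidase, peroxidase and laccase. Activated carbon adsorbs phenolics and many other small molecules from the medium, growth regulators among them, and PVP is a polymer that binds phenolics. Phenolics are made by the phenylpropanoid pathway, which also feeds lignin and the aromatic part of suberin, the lipid polyester that roots lay down in the endodermis and periderm. An embryo that germinates in culture first lives on the storage proteins and oil of its seed, which are broken down to peptides, amino acids and, through the glyoxylate cycle, sugars.

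Values were RSEM estimated counts per assembled unigene, which summed to 11071691 to 19715848 per library with AC and PVP and to 20868648 to 25069044 with PVP. The 3rd AC and PVP library was the shallowest of the series. In the study's read statistics it also had, by a clear margin, the lowest share of bases of good quality. Levels below are TMM-scaled CPM, which set the count of a unigene against the size of its library, always given for libraries 1, 2 and 3 in that order, and they compare one unigene between libraries but not unigenes with each other, since lengths were not used. Gene names are Swiss-Prot matches that the study gave to its own differentially expressed unigenes, so a named unigene had already been called in some comparison of these libraries, and no count over a list of named genes is independent of that. A differentially expressed unigene (DEG) was called where edgeR's quasi-likelihood test gave p under 0.05 after Benjamini-Hochberg adjustment and the log2 fold change was beyond 1 in either direction, in a fit of all 12 libraries. Across unigenes, log2 CPM correlated at 0.956 to 0.974 within AC and PVP, at 0.966 to 0.974 within PVP and at 0.936 to 0.963 between these groups.

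Of 58247 unigenes tested, 41 were DEGs (0.0704%), 17 of them higher (0.0292%) and 24 lower (0.0412%) with AC and PVP than with PVP. Of the 41, 25 had a name. With an unadjusted p under 0.05 there were 5480 unigenes (9.41%), 3095 higher (5.31%) and 2385 lower (4.09%). The number called depended strongly on the tool: DESeq2 on the 6 libraries of this comparison called 491 higher (0.843%) and 257 lower (0.441%), and 40 of the 41 were among them. With library sizes in place of TMM factors the split was 23 higher and 11 lower, beside a shift of 0.183 in the median log2 fold change of all unigenes. Leaving out AC and PVP library 1, 2 or 3 gave 7, 186 and 5 DEGs, and leaving out PVP library 1, 2 or 3 gave 13, 15 and 11. In these fits 7, 39, 5, 12, 15 and 7 of the 41 calls remained, and in each the direction of every one of the 41 was kept. Of the 24 lower calls, 0 remained without AC and PVP library 3 (edgeR adjusted p from 0.0912 to 0.306, with 1348 unigenes lower at an unadjusted p under 0.05), 1 without AC and PVP library 1 and 3 without PVP library 3, against 22 without AC and PVP library 2. Of the 41, 4 kept the call in all 6 fits, and all 4 were higher with AC and PVP. The libraries of both groups did not overlap for 40 of the 41, against 5.09% of all unigenes tested with every AC and PVP library above and 6.09% with every one below. The 41 were called on these same libraries, so their lack of overlap is largely fixed by the call and is no separate support.

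**Figure D1:**
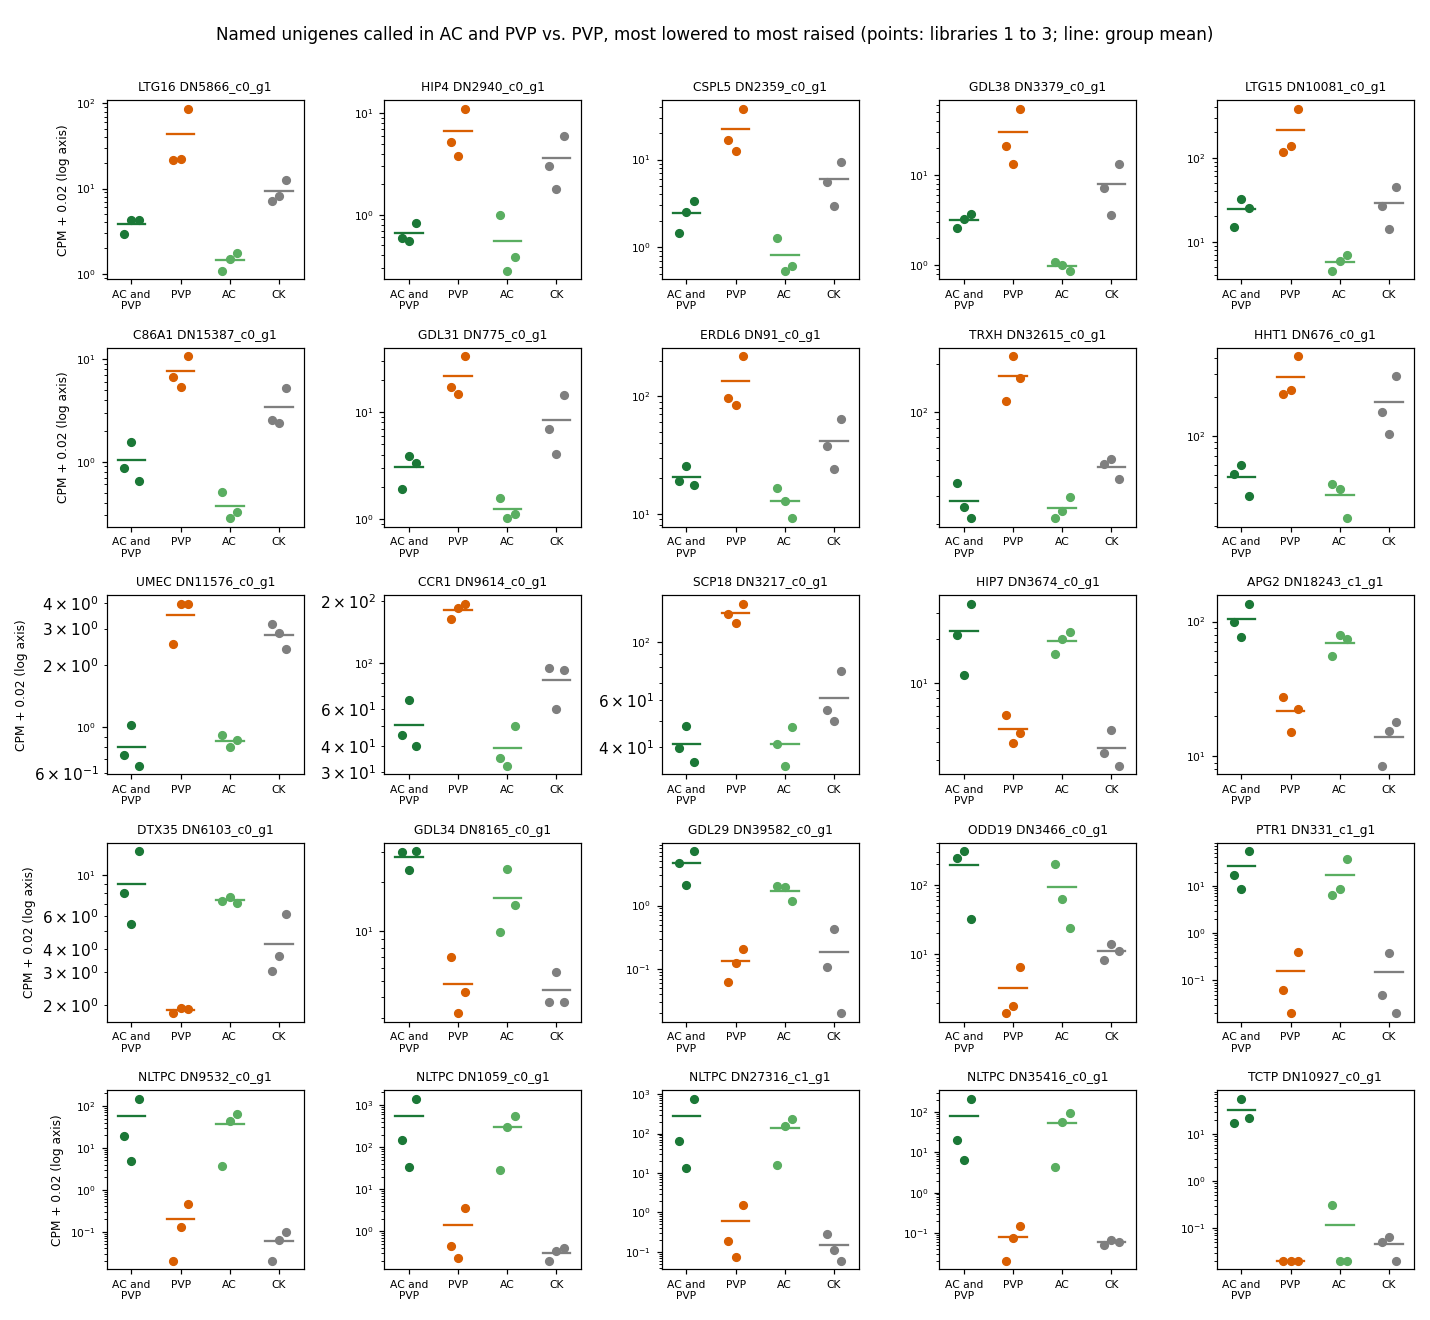
CPM plus 0.02 (log axis) of the 25 named DEGs in each library, one panel per unigene, ordered from the most negative to the most positive log2 fold change of AC and PVP vs. PVP. Points are the 3 libraries of each group and lines are group means. The panels from LTG16 to SCP18 hold the 13 unigenes that were lower with AC and PVP, those from HIP7 to TCTP the 12 that were higher, and no panel shows overlap between the AC and PVP and the PVP libraries.

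Several of the lower DEGs belong to the synthesis of surface and root barrier polymers. C86A1, the fatty acid omega-hydroxylase that makes suberin monomers in Arabidopsis roots (TRINITY_DN15387_c0_g1), had 0.853, 1.54 and 0.63 CPM in the AC and PVP libraries, against 6.69, 5.25 and 10.6 CPM in the PVP libraries. It fell (log2 fold change -2.88, SE 0.44, edgeR adjusted p = 0.0323), and its highest AC and PVP library lay well below its lowest PVP library. HHT1, the feruloyl transferase that joins ferulate to suberin omega-hydroxyacids (TRINITY_DN676_c0_g1), had 50.3, 59 and 34.4 CPM with AC and PVP and 213, 226 and 417 CPM with PVP. It fell as well (log2 fold change -2.57, SE 0.43, edgeR adjusted p = 0.0375). In both, PVP library 3 was the highest of the 6.

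These 2 were the DEGs among 17 listed unigenes of suberin, cutin and wax synthesis, none of which was called higher. The other 15 did not pass the edgeR test, but 12 of the 17 had every AC and PVP library below every PVP library, 3 had every one above, and the median log2 fold change was -1.77, beside 0.00 over all unigenes tested. FACR3, a fatty acyl reductase that makes primary alcohols (TRINITY_DN1082_c0_g3), had 2.7, 4.63 and 3.51 CPM with AC and PVP and 14.6, 11.5 and 11.6 CPM with PVP (log2 fold change -1.80, SE 0.33, edgeR adjusted p = 0.0742). GPAT1, a glycerol-3-phosphate acyltransferase (TRINITY_DN224_c0_g3), had 0.758, 0.671 and 0.72 CPM with AC and PVP and 3.22, 2.39 and 5.25 CPM with PVP (edgeR adjusted p = 0.102). These groups did not overlap in either unigene. Another unigene named FACR3 (TRINITY_DN1082_c0_g1) had 3.98, 3.69 and 5.94 CPM with AC and PVP and 4.15, 1.91 and 1.13 CPM with PVP. It overlapped between the groups and had a positive log2 fold change (0.90, edgeR adjusted p = 0.534). DESeq2 on 2 groups called 11 of the list lower and 2 higher. The study's tool was DESeq2 as well, and 13 of the 17 were among its own DEGs of this comparison. Here and below, such DESeq2 counts over a list thus largely repeat how members came to be named and are no separate support. The summed level of the list was 120.4, 108 and 101 CPM of the total with AC and PVP, against 332, 250.1 and 436 with PVP.

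Lipid transfer proteins held by a GPI anchor, which sit on the outer face of the plasma membrane and take part in the export of cuticle and suberin lipids, held 2 more of the lower DEGs. LTG16 (TRINITY_DN5866_c0_g1) had 2.94, 4.23 and 4.23 CPM with AC and PVP and 21.6, 22.4 and 86.7 CPM with PVP, and fell (log2 fold change -3.52, SE 0.50, edgeR adjusted p = 0.0226). LTG15 (TRINITY_DN10081_c0_g1) had 15, 32.5 and 25.3 CPM with AC and PVP and 116, 138 and 385 CPM with PVP, and fell (log2 fold change -3.13, SE 0.51, edgeR adjusted p = 0.0357). PVP library 3 was the highest in both, and the other PVP libraries also stood above all 3 AC and PVP libraries. Of the 11 unigenes of this list, these 2 were DEGs and 7 in all had every AC and PVP library below PVP, with a median log2 fold change of -2.66. LTPG5 (TRINITY_DN26209_c0_g1) and LTG20 (TRINITY_DN1741_c0_g1) just missed the threshold, with log2 fold changes of -2.83 and -3.19 and edgeR adjusted p of 0.0553 and 0.0585. The list did not move as one, since LTG14 (TRINITY_DN89941_c0_g1) had 38.3, 2.82 and 93.5 CPM with AC and PVP and 0, 0.053 and 1.63 CPM with PVP, the opposite order, with an edgeR adjusted p of 0.271.

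CSPL5, a CASP-like membrane protein of the family that builds the Casparian strip of the root endodermis (TRINITY_DN2359_c0_g1), had 1.42, 2.48 and 3.33 CPM in the AC and PVP libraries, against 16.7, 12.4 and 38 CPM in the PVP libraries. It fell (log2 fold change -3.23, SE 0.52, edgeR adjusted p = 0.0357). The other 3 members of the Casparian strip list were not DEGs: CSPLA (TRINITY_DN113520_c0_g1) had 9.9, 1.95 and 11.9 CPM with AC and PVP and 0.465, 0.53 and 0.563 CPM with PVP, and CSPLB (TRINITY_DN9283_c0_g1) had 8.96, 5.03 and 15.8 CPM with AC and PVP and 3.3, 2.02 and 3.19 CPM with PVP. Both thus lay on the other side from CSPL5, with every AC and PVP library above PVP. MYB36, the transcription factor that switches on Casparian strip genes in Arabidopsis (TRINITY_DN3020_c0_g1), overlapped between groups, with 1.8, 3.22 and 1.89 CPM with AC and PVP and 2.33, 4.61 and 5.13 CPM with PVP (edgeR adjusted p = 0.518).

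GDSL esterases, a large family of lipid hydrolases some of which act on cutin and suberin, were DEGs in both directions. GDL38 (TRINITY_DN3379_c0_g1) had 2.56, 3.22 and 3.69 CPM with AC and PVP and 20.9, 13.3 and 54.3 CPM with PVP and fell (log2 fold change -3.23, SE 0.51, edgeR adjusted p = 0.0357), and GDL31 (TRINITY_DN775_c0_g1) had 1.9, 3.82 and 3.33 CPM with AC and PVP and 17.1, 14.9 and 33.4 CPM with PVP and fell (log2 fold change -2.86, SE 0.47, edgeR adjusted p = 0.0357). GDL29 (TRINITY_DN39582_c0_g1), in contrast, had 4.69, 2.08 and 7.2 CPM with AC and PVP and 0.0423, 0.106 and 0.188 CPM with PVP and rose (log2 fold change 5.39, SE 0.80, edgeR adjusted p = 0.0188). GDL34 (TRINITY_DN8165_c0_g1) had 30, 23.5 and 30.5 CPM with AC and PVP and 6.98, 3.18 and 4.31 CPM with PVP and rose likewise (log2 fold change 2.53, SE 0.37, edgeR adjusted p = 0.0267). None of these 4 overlapped between the groups. Within the list of 11, 2 were called higher and 2 lower, 3 had every AC and PVP library above PVP and 5 had every one below, and the median log2 fold change was -0.13. GDL80 (TRINITY_DN3267_c0_g1) followed the lower members with 5.64, 5.97 and 6.75 CPM with AC and PVP and 31.3, 29.2 and 116 CPM with PVP without passing the test (edgeR adjusted p = 0.0804).

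Among enzymes of phenylpropanoid and monolignol synthesis, CCR1, the cinnamoyl-CoA reductase that commits intermediates to lignin (TRINITY_DN9614_c0_g1), was the DEG of 12 listed. It had 45.1, 66.3 and 39.8 CPM in the AC and PVP libraries, against 163, 184 and 194 CPM in the PVP libraries, and fell (log2 fold change -1.84, SE 0.31, edgeR adjusted p = 0.0376). The replicates of each group lay close together, and the lowest PVP library was above the highest AC and PVP library. The other 11 were not called by edgeR, although 10 of the 12 had every AC and PVP library below every PVP library and the median log2 fold change was -1.22. Another unigene named CCR1 (TRINITY_DN21646_c0_g1) had 0.995, 0.0671 and 0.9 CPM with AC and PVP and 0.127, 0.053 and 0 CPM with PVP. It went the other way, with overlap between the groups (log2 fold change 3.19, edgeR adjusted p = 0.459). PALY, phenylalanine ammonia-lyase, the entry enzyme of the pathway (TRINITY_DN2415_c0_g1), had 86.3, 69.1 and 74.4 CPM with AC and PVP and 148, 152 and 229 CPM with PVP (edgeR adjusted p = 0.266). TCMO, cinnamate 4-hydroxylase, the next step (TRINITY_DN27087_c0_g1), had 20.8, 25.4 and 20.3 CPM with AC and PVP and 36.4, 70.8 and 47.4 CPM with PVP (edgeR adjusted p = 0.224). CAMT, a caffeoyl-CoA methyltransferase of monolignol synthesis (TRINITY_DN1600_c0_g1), had 41, 61.7 and 72.6 CPM with AC and PVP and 106, 157 and 340.2 CPM with PVP (edgeR adjusted p = 0.197). In all 3 the groups were apart. Summed over the 12, the level was 365, 433 and 403 CPM of the total with AC and PVP, against 742, 861 and 1084 with PVP, and DESeq2 on 2 groups called 7 lower and 0 higher.

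None of the listed peroxidases, laccases and polyphenol oxidase was a DEG; 16 of the 41 DEGs had no name and were not assigned to any list. Of 11 class III peroxidases, which polymerise lignin and oxidise phenolics with hydrogen peroxide, 8 had every AC and PVP library below PVP and none had every one above, with a median log2 fold change of -1.63. PER11 (TRINITY_DN112784_c0_g1) came nearest to the threshold, with 2.7, 5.23 and 3.6 CPM with AC and PVP and 21.8, 17.9 and 73.2 CPM with PVP (log2 fold change -3.29, SE 0.60, edgeR adjusted p = 0.0655). PER64, whose Arabidopsis counterpart acts in lignification of the Casparian strip (TRINITY_DN9029_c0_g1), had 15, 36 and 13.1 CPM with AC and PVP and 89.7, 70 and 181 CPM with PVP (log2 fold change -2.41, SE 0.47, edgeR adjusted p = 0.0928). Another unigene named PER64 (TRINITY_DN105044_c0_g1) had 4.03, 1.07 and 3.33 CPM with AC and PVP and 1.65, 0.318 and 0.813 CPM with PVP. It went the other way, with overlap between the groups (log2 fold change 1.57, edgeR adjusted p = 0.427). The 11 summed to 323, 422 and 269 CPM of the total with AC and PVP, against 803, 1203 and 993 with PVP. Of 5 laccases, copper oxidases of phenolics and monolignols, 3 had every AC and PVP library below PVP, with a median log2 fold change of -2.37. LAC3 (TRINITY_DN4988_c0_g1) had 3.32, 6.78 and 4.41 CPM with AC and PVP and 55.6, 49.3 and 116 CPM with PVP (log2 fold change -3.93, SE 0.84, edgeR adjusted p = 0.139). PPO, the polyphenol oxidase (TRINITY_DN5115_c0_g1), had 20.6, 30.3 and 15.2 CPM with AC and PVP and 25, 119 and 86 CPM with PVP. PVP library 1 lay within the range of the AC and PVP libraries, and the difference did not pass the test (log2 fold change -1.80, SE 0.46, edgeR adjusted p = 0.257). DESeq2 on 2 groups called 5 peroxidases, 3 laccases and PPO lower.

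**Figure D2:**
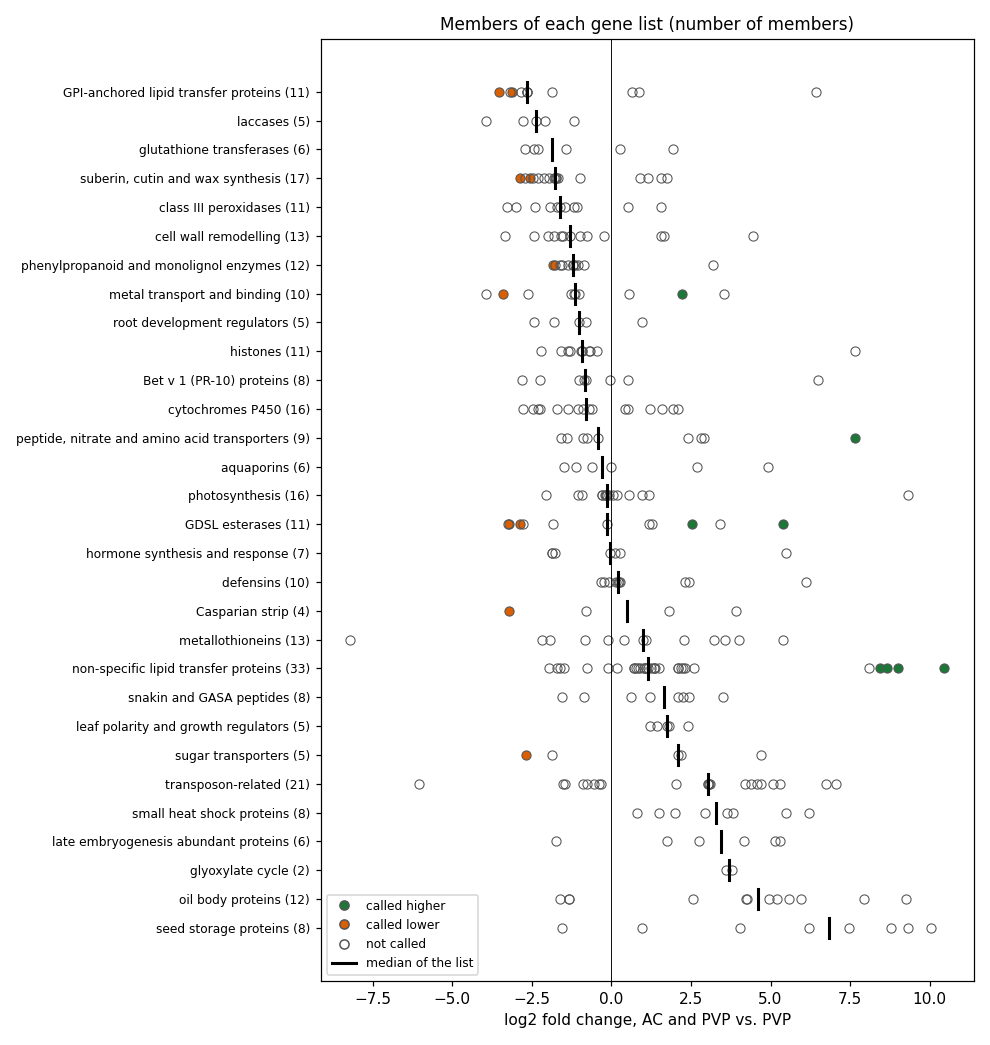
Log2 fold change of AC and PVP vs. PVP for every member of 30 gene lists, ordered by list median with the most negative at the top; filled points are DEGs and the black bar is the median of the list. DEGs fall in 9 lists. The suberin, GPI-anchored lipid transfer, phenylpropanoid, peroxidase and laccase lists lie mostly left of 0, while the Casparian strip and GDSL esterase lists spread to both sides. Small heat shock, glyoxylate cycle and most oil body and seed storage unigenes lie right of 0 without a DEG among them.

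The other named DEGs that were lower belonged to various roles. TRXH, a thioredoxin h that reduces disulfide bonds in the cytosol (TRINITY_DN32615_c0_g1), had 36, 25.6 and 21.7 CPM in the AC and PVP libraries, against 118, 223 and 163 CPM in the PVP libraries. It fell (log2 fold change -2.59, SE 0.32, edgeR adjusted p = 0.00585), and it kept the call in 5 of the 6 fits with a library left out, the exception being that without AC and PVP library 3 (edgeR adjusted p = 0.0912). ERDL6, an ERD6-like sugar carrier that exports glucose from the vacuole in Arabidopsis (TRINITY_DN91_c0_g1), had 19.1, 25.4 and 17.6 CPM with AC and PVP and 96.8, 85 and 220.0 CPM with PVP, and fell (log2 fold change -2.70, SE 0.43, edgeR adjusted p = 0.0357). SCP18, a serine carboxypeptidase-like protein (TRINITY_DN3217_c0_g1), had 39.7, 47.8 and 34.9 CPM with AC and PVP and 127, 118 and 139 CPM with PVP, and fell by the smallest amount of the named DEGs (log2 fold change -1.65, SE 0.28, edgeR adjusted p = 0.0376). The groups did not overlap in any of these 3.

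UMEC, a small blue copper protein named after umecyanin (TRINITY_DN11576_c0_g1), had 0.711, 1.01 and 0.63 CPM with AC and PVP and 2.5, 3.92 and 3.94 CPM with PVP, and fell (log2 fold change -2.12, SE 0.35, edgeR adjusted p = 0.0375). HIP4, a heavy metal-associated isoprenylated protein (TRINITY_DN2940_c0_g1), had 0.569, 0.537 and 0.81 CPM with AC and PVP and 5.2, 3.77 and 11.1 CPM with PVP, and fell (log2 fold change -3.40, SE 0.58, edgeR adjusted p = 0.0408), but it passed in none of the fits with a library of either group left out. HIP7 of the same family (TRINITY_DN3674_c0_g1) had 21.4, 11.5 and 35 CPM with AC and PVP and 6.09, 3.92 and 4.56 CPM with PVP, and rose (log2 fold change 2.21, SE 0.38, edgeR adjusted p = 0.0425). So the 10 listed genes of metal transport and binding held a DEG in each direction. HMA5, a copper-exporting ATPase that in Arabidopsis acts in roots, was picked out after its values were seen (TRINITY_DN5865_c1_g1). It had 144, 117 and 82.5 CPM with AC and PVP and 1559, 1139.8 and 2591 CPM with PVP, with every PVP library above every AC and PVP library, and did not pass the test (log2 fold change -3.95, SE 1.14, edgeR adjusted p = 0.309).

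Among the unnamed unigenes that were lower, TRINITY_DN1290_c0_g1 had 0.90, 1.95 and 1.44 CPM with AC and PVP and 16.5, 31.5 and 139 CPM with PVP, and fell (log2 fold change -5.46, SE 0.70, edgeR adjusted p = 0.00936). TRINITY_DN3158_c0_g1 had 2.18, 3.09 and 2.34 CPM with AC and PVP and 13.2, 12.5 and 39 CPM with PVP, and fell (log2 fold change -3.08, SE 0.47, edgeR adjusted p = 0.0323). TRINITY_DN18155_c0_g1, the DEG whose groups overlapped, had 0, 0.268 and 0.090 CPM with AC and PVP and 26.4, 0 and 33.8 CPM with PVP (log2 fold change -7.44, SE 1.32, edgeR adjusted p = 0.0323), so its call rests on PVP libraries 1 and 3.

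The 24 lower DEGs had one order of groups in common. In all 24 the PVP mean was the highest of the 4 group means, in 23 the CK mean lay between the PVP and the AC and PVP means, and in 20 the AC mean was the lowest. PVP library 3 was the highest of the PVP libraries in 23 of the 24. For HHT1 the means were 47.9 ± 12.5 CPM with AC and PVP and 285 ± 114 with PVP, beside 34.6 ± 10.3 with AC and 183 ± 98 with CK (SD, n = 3 each). These values had been used in choosing the DEGs, so the place of PVP at the top is in part fixed by the call. The AC and CK libraries entered the call through the filter, the TMM factors and the estimate of the spread.

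The unigenes that rose most as a family were 4 named NLTPC, non-specific lipid transfer proteins, which are small secreted proteins that bind fatty acids and other lipids in a cavity, matched here to an isoform described from castor bean cotyledons. The most abundant by count (TRINITY_DN1059_c0_g1) had 148, 34.4 and 1433 CPM in the AC and PVP libraries, against 0.423, 0.212 and 3.5 CPM in the PVP libraries, and rose (log2 fold change 8.65, SE 1.51, edgeR adjusted p = 0.0494). TRINITY_DN35416_c0_g1 had 19.9, 6.58 and 218 CPM with AC and PVP and 0, 0.053 and 0.125 CPM with PVP, and rose (log2 fold change 10.45, SE 1.38, edgeR adjusted p = 0.0026). It kept its call in all 6 fits with a library left out, with edgeR adjusted p from 0.000481 to 0.0472. TRINITY_DN9532_c0_g1 rose by 8.43 (SE 1.35, edgeR adjusted p = 0.0254) and TRINITY_DN27316_c1_g1 by 9.02 (SE 1.55, edgeR adjusted p = 0.0402) on the log2 scale. Of these other NLTPC unigenes, TRINITY_DN9532_c0_g1 kept its call in 2 of the 6 fits with a library left out and TRINITY_DN27316_c1_g1 and TRINITY_DN1059_c0_g1 in 1 each, with edgeR adjusted p up to 0.133, 0.229 and 0.272. In all 4, AC and PVP library 3 was the highest and library 2 the lowest of its group, and every PVP library lay below the lowest of them. Their sum was 271, 48.6 and 2582 CPM of the total with AC and PVP, against 0.58, 0.319 and 4.26 with PVP. The unnamed DEG TRINITY_DN27316_c0_g1 bears the same assembly cluster number as one of them, and had 24, 7.18 and 191 CPM with AC and PVP and 0.0423, 0.053 and 0.688 CPM with PVP (log2 fold change 8.25, SE 1.38, edgeR adjusted p = 0.0357), a call kept in 1 of the 6 fits. Near-identical copies can share reads in such counts, so the 5 may not be separate measurements.

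The remaining 29 of 33 listed non-specific lipid transfer proteins were not DEGs. Counting all 33, 24 had every AC and PVP library above PVP and 5 had every one below, and the median log2 fold change was 1.16. NLTP (TRINITY_DN55495_c0_g1) had 200.3, 255 and 527 CPM with AC and PVP and 27.8, 16.4 and 118 CPM with PVP (edgeR adjusted p = 0.197), whereas NLTP (TRINITY_DN32699_c0_g1) had 18.1, 14.7 and 9.54 CPM with AC and PVP and 40.8, 37.4 and 41.7 CPM with PVP (edgeR adjusted p = 0.187). The family thus held members on either side that did not overlap between groups. DESeq2 on 2 groups called 16 higher and 4 lower.

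PTR1, a di- and tripeptide transporter (TRINITY_DN331_c1_g1), followed the NLTPC unigenes, with 16.7, 8.52 and 54.6 CPM in the AC and PVP libraries, against 0.0423, 0 and 0.375 CPM in the PVP libraries. It rose (log2 fold change 7.67, SE 1.21, edgeR adjusted p = 0.0267), and its libraries stood in the same order within AC and PVP, library 3 highest and library 2 lowest. It was the DEG of 9 listed peptide, nitrate and amino acid transporters, of which 4 had every AC and PVP library above PVP and 3 every one below. Both enzymes particular to the glyoxylate cycle, which turns stored fat into sugar in germinating seeds, showed that order too but were not DEGs. ACEA, isocitrate lyase (TRINITY_DN5579_c0_g1), had 9.34, 6.84 and 29.5 CPM with AC and PVP and 0.719, 0.371 and 2.69 CPM with PVP (log2 fold change 3.62, SE 0.95, edgeR adjusted p = 0.266). MASY, malate synthase (TRINITY_DN97003_c0_g1), had 9.72, 4.16 and 49.5 CPM with AC and PVP and 0.804, 1.33 and 2.5 CPM with PVP (log2 fold change 3.78, SE 1.00, edgeR adjusted p = 0.267). DESeq2 on 2 groups called both higher.

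Transcripts of seed reserves differed widely between the AC and PVP libraries themselves. The 20 listed seed storage and oil body unigenes summed to 2719.7, 20569 and 7400.0 CPM of the total with AC and PVP, against 6026, 4257 and 2338 with PVP, so the groups overlapped. 2SS, a 2S albumin (TRINITY_DN7446_c0_g1), had 291, 11733 and 3660.4 CPM with AC and PVP and 11.7, 19.6 and 57.7 CPM with PVP (log2 fold change 7.46, SE 2.24, edgeR adjusted p = 0.337). OLEL, an oleosin of the oil body coat (TRINITY_DN9108_c1_g1), had 292, 2469 and 835 CPM with AC and PVP and 14, 18.8 and 42.1 CPM with PVP (log2 fold change 5.59, SE 1.66, edgeR adjusted p = 0.33). Neither they nor any other of the 20 were DEGs, though 11 of the 20 had every AC and PVP library above PVP. On the other side, 1 of the 8 seed storage and 2 of the 12 oil body unigenes had every AC and PVP library below PVP. VICHY, a vicilin-type storage protein (TRINITY_DN913_c0_g1), made up most of the sum in PVP, and had 1517, 2185 and 763 CPM with AC and PVP and 5906, 5097 and 2212 CPM with PVP, the reverse order, with an edgeR adjusted p of 0.436. The part of reserve-filled tissue in the other differences was not tested. AC and PVP library 2, with the most reserve transcripts of its group, was the lowest of that group for 13 of the 17 DEGs that rose. It was also the highest of that group for 17 of the 24 DEGs that fell, so it lay nearer to PVP in both directions. The 13 include the 4 NLTPC unigenes and TRINITY_DN27316_c0_g1, which may not be separate measurements.

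**Figure D3:**
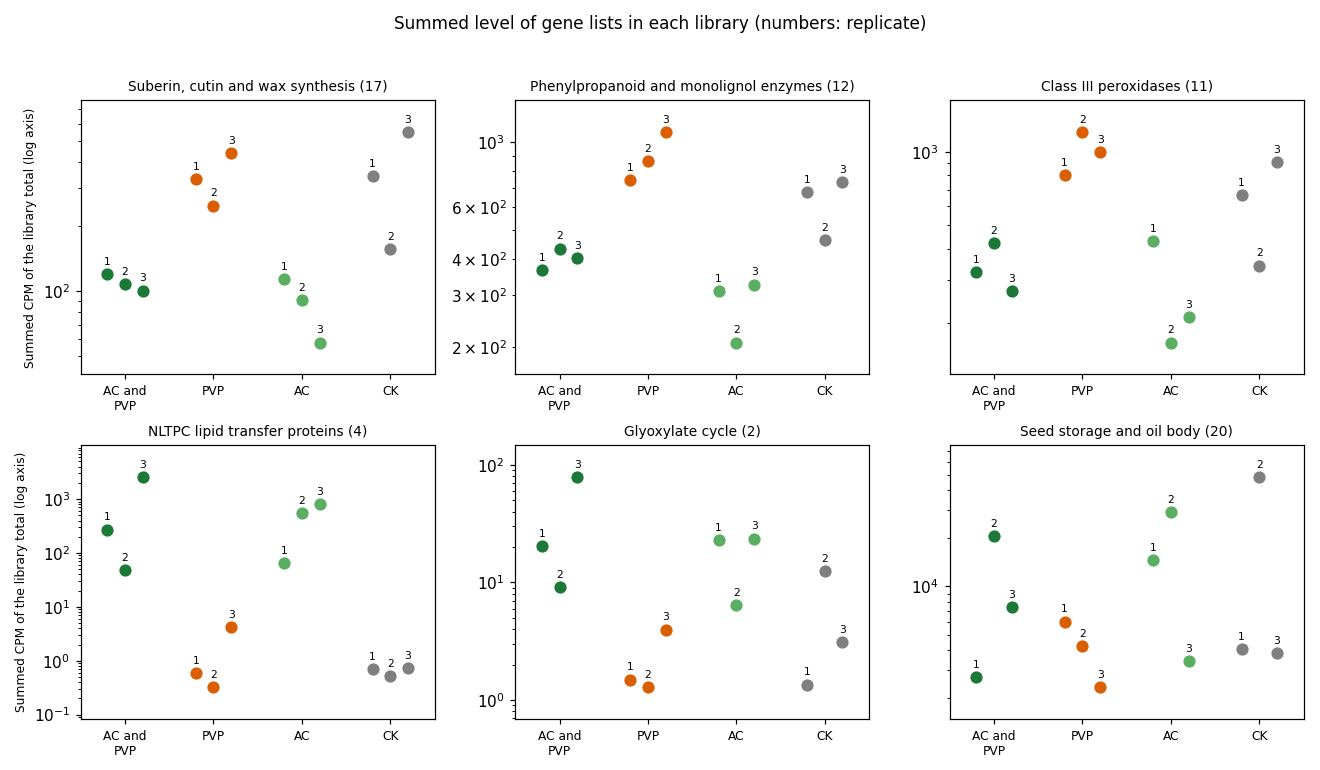
Summed CPM of the library total (log axis) of 6 groups of unigenes in each library, with the replicate number beside each point and the number of unigenes in each title. The suberin, phenylpropanoid and peroxidase sums are lower in every AC and PVP library than in every PVP library, the NLTPC and glyoxylate cycle sums are higher with AC and PVP library 3 at the top, and the seed storage and oil body sum overlaps between these groups and is highest of all in CK library 2.

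A unigene named TCTP, the translationally controlled tumour protein, a conserved protein linked to growth (TRINITY_DN10927_c0_g1), was counted with AC and PVP and not with PVP. Names were given to the study's DEGs alone, so other unigenes of TCTP may be among the unnamed. The values below hold for this unigene only. This unigene had 16.9, 57 and 21.8 CPM in the AC and PVP libraries, against 0, 0 and 0 CPM in the PVP libraries, that is 1447 counts over the AC and PVP libraries and 0 over the PVP libraries. Against a floor of 3 counts over the PVP group, which covers counting error alone, its level was at least 599-fold higher. The fitted call was log2 fold change 12.36, SE 1.25, edgeR adjusted p = 0.000619, a fold that depends on how counts of 0 are fitted and is no bound. The call held in all 6 fits with a library left out, with edgeR adjusted p from 0.000352 to 0.00767. In AC libraries it had 0.285, 0 and 0 CPM and in CK libraries 0.0297, 0.0449 and 0 CPM, so it was near 0 in all 9 libraries outside AC and PVP. Besides it, 1 unigene had at least 1 CPM in every AC and PVP library and no count with PVP, the unnamed TRINITY_DN3708_c0_g1, and 1 had the reverse pattern, the unnamed TRINITY_DN36448_c0_g5, with 0, 0 and 0 CPM with AC and PVP and 2.71, 2.02 and 2.81 CPM with PVP; neither was a DEG, and both were singled out after their values were seen. H41, a histone H4 (TRINITY_DN14029_c1_g1), had 1.42, 0.403 and 1.89 CPM with AC and PVP and 0, 0 and 0 CPM with PVP and no count in AC or CK either, but did not pass the test (edgeR adjusted p = 0.204). The unnamed DEG TRINITY_DN5400_c0_g1 had 3.27, 0.537 and 6.84 CPM with AC and PVP and 0, 0 and 0 CPM with PVP, at least 63.3-fold higher by the same floor (edgeR adjusted p = 0.0454).

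Of the other DEGs that rose, APG2 (TRINITY_DN18243_c1_g1) had 99.5, 77 and 136 CPM with AC and PVP and 27.7, 15.2 and 22.3 CPM with PVP (log2 fold change 2.26, SE 0.35, edgeR adjusted p = 0.0323). DTX35, a MATE-type carrier that in Arabidopsis moves flavonoids into the vacuole (TRINITY_DN6103_c0_g1), had 8.06, 5.43 and 13.5 CPM with AC and PVP and 1.78, 1.91 and 1.88 CPM with PVP, and rose (log2 fold change 2.27, SE 0.36, edgeR adjusted p = 0.0357). ODD19 (TRINITY_DN3466_c0_g1) had 244, 306 and 32.1 CPM with AC and PVP and 1.4, 1.8 and 6.63 CPM with PVP, and rose (log2 fold change 5.90, SE 0.93, edgeR adjusted p = 0.0351). In contrast to most, ODD19 was lowest in AC and PVP library 3, which still lay above all PVP libraries. Of the unnamed ones, TRINITY_DN5378_c0_g1 had 19.7, 10.9 and 16.7 CPM with AC and PVP and 3.17, 1.96 and 1.56 CPM with PVP, rose (log2 fold change 2.80, SE 0.34, edgeR adjusted p = 0.00585) and held in all 6 fits with a library left out. TRINITY_DN28_c0_g1 had 5.17, 5.64 and 9.18 CPM with AC and PVP and 0, 0.159 and 0.25 CPM with PVP, and rose (log2 fold change 5.67, SE 0.91, edgeR adjusted p = 0.0323).

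Small heat shock proteins, chaperones that keep unfolded proteins soluble and that are also made in maturing seeds, lay higher with AC and PVP without a DEG. All 8 had a positive log2 fold change (median 3.28), and 6 had every AC and PVP library above PVP. HS26M, a mitochondrial member (TRINITY_DN3210_c0_g1), had 1.99, 4.5 and 6.03 CPM with AC and PVP and 0.465, 0.583 and 0.563 CPM with PVP (log2 fold change 2.94, SE 0.62, edgeR adjusted p = 0.13). HSP12 (TRINITY_DN683_c0_g2) had 159, 263 and 216 CPM with AC and PVP and 65.4, 60.6 and 98.2 CPM with PVP (log2 fold change 1.51, SE 0.43, edgeR adjusted p = 0.30). Likewise, all 5 listed regulators of leaf polarity and growth had positive log2 fold changes (median 1.75), 4 of them without overlap. AS1, a MYB factor that represses meristem genes in leaf primordia (TRINITY_DN3372_c0_g1), had 9.95, 7.51 and 18.7 CPM with AC and PVP and 5.37, 2.28 and 3.0 CPM with PVP (log2 fold change 1.75, SE 0.39, edgeR adjusted p = 0.179). YAB1, a YABBY factor of the lower leaf side (TRINITY_DN76361_c0_g1), had 2.27, 1.21 and 2.07 CPM with AC and PVP and 0.55, 0.318 and 0.125 CPM with PVP (log2 fold change 2.41, SE 0.60, edgeR adjusted p = 0.226). DESeq2 on 2 groups called 6 of the small heat shock proteins and 4 of the leaf regulators higher.

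Of the 5 listed regulators of root development, 4 had a negative log2 fold change, 3 of them with an unadjusted p under 0.05, and 1 had a positive one with such a p; the median was -1.005 and none was a DEG. Every AC and PVP library lay below PVP for 2 and above for 1. MYB93, which in Arabidopsis restrains lateral roots (TRINITY_DN9537_c0_g2), had 0.332, 0.0671 and 0.45 CPM with AC and PVP and 1.52, 1.17 and 1.88 CPM with PVP, lower in every AC and PVP library but not past the threshold (log2 fold change -2.43, SE 0.69, edgeR adjusted p = 0.278). PLET2, a PLETHORA factor of the root stem cell niche (TRINITY_DN4352_c1_g1), had 0.0474, 0.403 and 0.27 CPM with AC and PVP and 1.14, 0.053 and 1.19 CPM with PVP and overlapped between groups. MIZ1, needed for root hydrotropism (TRINITY_DN3645_c0_g1), had 6.07, 7.25 and 7.38 CPM with AC and PVP and 4.7, 2.97 and 3.0 CPM with PVP (edgeR adjusted p = 0.476), on the other side. The list of 5 summed to 11.4, 10.3 and 11.6 CPM of the total with AC and PVP, against 14.9, 8.82 and 10.6 with PVP, with overlap between the groups.

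Photosynthesis genes, which mark green tissue, held no DEG. The 16 had a median log2 fold change of -0.14 and summed to 2103, 1809.5 and 2289.6 CPM of the total with AC and PVP, against 1902, 1072 and 1499.7 with PVP. PSBM, a small photosystem II subunit (TRINITY_DN3846_c0_g2), had 281, 311 and 188 CPM with AC and PVP and 151, 105 and 146 CPM with PVP (edgeR adjusted p = 0.518), and the sums overlapped between the groups. Of 11 histones, a marker of dividing cells, 10 had a negative log2 fold change (median -0.92), 4 without overlap, and none was a DEG. Of 21 transposon-related unigenes, 13 had a positive and 8 a negative log2 fold change, and none was a DEG. Every AC and PVP library lay above PVP for 7 of them and below for 2. TF211 (TRINITY_DN17969_c0_g1), for instance, had 1.66, 0.268 and 2.16 CPM with AC and PVP and 0.0423, 0 and 0.0625 CPM with PVP (log2 fold change 5.07, SE 1.22, edgeR adjusted p = 0.174). Their sum was 340.1, 76.9 and 374 CPM of the total with AC and PVP, against 102, 76.5 and 92.9 with PVP, and within AC and PVP it was lowest in library 2.

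The same agent was also added without PVP, in AC vs. CK, which shares no library with the comparison above, although both were fitted together. AC vs. CK had 189 DEGs (0.324% of unigenes tested), 105 higher (0.18%) and 84 lower (0.144%), and 20 of the 41 DEGs of AC and PVP vs. PVP were among them, 12 of the 17 higher and 8 of the 24 lower. The sign was the same for 40 of the 41, against 52.8% of all unigenes tested, and 38 of the 41 had the same sign and an unadjusted p under 0.05 in AC vs. CK, where 9.33% of all unigenes had such a p in either direction. The suberin enzyme C86A1 had log2 fold changes of -2.88 with AC and PVP vs. PVP and -3.22 with AC vs. CK (edgeR adjusted p = 0.0196 for the second). NLTPC (TRINITY_DN35416_c0_g1) had 10.45 and 10.27 (edgeR adjusted p = 0.00453 for AC vs. CK). PTR1 had 7.67 and 7.14 (edgeR adjusted p = 0.0204 for AC vs. CK). The unadjusted edgeR p-values for a difference between the 2 changes were 0.583, 0.962 and 0.77 for these unigenes.

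**Figure D4:**
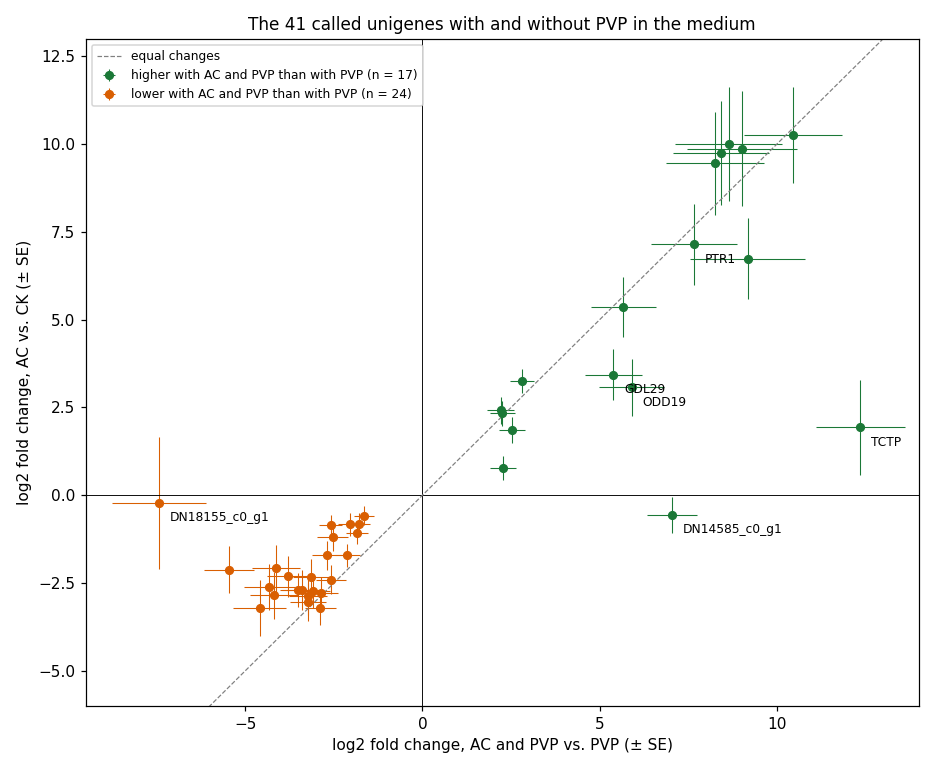
Log2 fold change of AC and PVP vs. PVP (horizontal axis) against that of AC vs. CK (vertical axis) for the 41 DEGs, with bars of 1 SE. The 17 DEGs higher with AC and PVP are green, the 24 lower ones orange, and the dashed line marks equal changes; 40 of 41 points share the sign in both, and DN14585_c0_g1 and TCTP lie far below the line.

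Whether the change differed with PVP in the medium, where carbon came with 0.5 g/L more PVP, was tested by the interaction of both agents. It called 1 unigene of 58247 (0.00172%), with 4349 at an unadjusted p under 0.05 (7.47%), and among the 41 DEGs 12 had such a p. The 41 were chosen by AC and PVP vs. PVP, which is part of this interaction. Small interaction p-values among them are thus in part fixed by that choice. The unnamed TRINITY_DN14585_c0_g1 was the one called. It had 8.2, 66 and 58.2 CPM in the AC and PVP libraries, against 0.296, 0.318 and 0.375 CPM in the PVP libraries, and rose (log2 fold change 7.05, SE 0.70, edgeR adjusted p = 0.000866). In AC libraries it had 104, 118 and 119.6 CPM and in CK libraries 90.7, 207 and 204 CPM, so PVP libraries alone were near 0, and AC and PVP library 1 lay far below the other AC and PVP libraries. Its log2 fold change in AC vs. CK was -0.56 (edgeR adjusted p = 0.72), and the interaction was 7.61 (SE 0.85, edgeR adjusted p = 0.00831). With the stricter filter filterByExpr the interaction was 7.61 and missed the threshold (edgeR adjusted p = 0.0742). For TRXH the changes were -2.59 on top of PVP and -0.85 without it on the log2 scale, with an unadjusted interaction p of 0.00090 from edgeR that did not pass adjustment (0.45). TCTP likewise missed the threshold, with an edgeR adjusted p of 0.509 for this interaction.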

How the data were processed

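RNA-seq was done on 12 libraries, 3 per group, and groups follow the treatment label. The authors trimmed reads with TrimGalore 0.6.4, assembled all libraries with Trinity 2.4.0, aligned with Bowtie 1.2.3 and made estimated counts per unigene with RSEM 1.3.3, which they deposited without scaling. Between 2.39% and 3.97% of values per library were not whole, and all were rounded. The filter kept unigenes counted in 3 or more of the 12 libraries (58247 of 130956, with 99.9% of counts).

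Differences were tested with edgeR 4.0.16 (TMM, quasi-likelihood, all 12 libraries in a fit, Benjamini-Hochberg adjustment), in R 4.3.3. The study's tool, DESeq2 (1.42.0 here), was an alternative, as were other scalings, filters, dispersion estimates, a replicate block and each library left out. SE is the absolute log2 fold change over the square root of F. Sums over a list are unscaled CPM of the library total. Scripts were tested on simulated data.

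Swiss-Prot names came from the study's tables of DEGs (769 named unigenes of 1555). Text names every named DEG, the 6 unnamed DEGs with the smallest adjusted p and members of some of 31 lists. Up to 4 members of each list by unadjusted p were to be named, but not all of them were, and several lists were not described. LTG14, GDL80, PALY, VICHY, HMA5, both NLTP, the other CCR1, FACR3 and PER64 unigenes, TRINITY_DN27316_c0_g1, TRINITY_DN5400_c0_g1, TRINITY_DN3708_c0_g1 and TRINITY_DN36448_c0_g5 were added after their values were seen. Members and lists were chosen with earlier results of these data known. Medium doses and pool sizes are from the study's methods. Fold changes and p-values in the study's tables were not used. Totals of 11071691 to 25069044 counts limit low unigenes, and p-values measure the spread between pools. No genome was used.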

Additional observations from a re-analysis of the deposited data

Results flagged for a closer look

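The change of the unnamed unigene TRINITY_DN14585_c0_g1 with carbon differed between media with and without PVP by a test of the difference itself, the edgeR interaction of both agents: 7.61 on the log2 scale (SE 0.85, edgeR adjusted p = 0.00831). With PVP in the medium, carbon also came with 0.5 g/L more PVP, which this test cannot set apart. The call was lost with the stricter filter filterByExpr (7.61, edgeR adjusted p = 0.0742) and held in the 4 other alternative fits of the interaction. Its mean was 44.2 ± 31.4 CPM with AC and PVP and 0.33 ± 0.0407 CPM with PVP, and 114 ± 8.72 CPM with AC and 167 ± 66.4 CPM with CK (SD, n = 3 each). All 3 PVP libraries were near 0 and the other 9 were not. Groups of 3 libraries were not searched for single outlying libraries.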

How the results depend on the processing

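The 41 DEGs of AC and PVP vs. PVP became 748 with DESeq2 on 2 groups, 335 with DESeq2 on all libraries, 446 with edgeR on 2 groups, 5 with filterByExpr, 1912 without a filter and 77 with the legacy dispersion estimate. Leaving out 1 library of either group gave 5 to 186, and leaving out CK library 2, which had the most seed reserve transcripts, a choice made after seeing the data, gave 134. RLE factors gave 38, library sizes alone 34, robust estimation 36, the adjusted p alone 41 and an absolute log2 fold change over 2 gave 38. Counts over the gene lists together moved alike, with 18 as reported, 154, 85 and 104 with the 2 DESeq2 fits and edgeR on 2 groups, 10 with library sizes alone, 1 with filterByExpr, 191 without a filter, 29 with the legacy estimate and 1 to 25 with a library left out. AC vs. CK had 823 DEGs with DESeq2 on all libraries in place of 189. The interaction had 104 with that fit, 5 with library sizes alone and 0 with filterByExpr (edgeR, with 2270 of 20884 unigenes at an unadjusted p under 0.05). The study's methods call the replicates paired without saying how. Deviations from the group mean correlated at 0.119, 0.123 and -0.0123 for libraries of one number and at -0.175 to 0.0982 for libraries of different numbers. These small correlations do not decide whether replicate numbers pair the libraries. A replicate block gave 438 DEGs, 102 over the lists, 722 in AC vs. CK and 105 for the interaction. In the other fits, 136 to 141 of the unigenes named or called had a value, and none changed sign; signs were not followed without CK library 2. The causes were not tested.

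The seed reserve sums of PVP libraries 1 and 2 were 247 and 424 CPM of the total without VICHY, against 6026 and 4257 with it, a choice made after the values were seen. Precision was limited by 3 libraries per group and, for low unigenes, by few counts in libraries of 11071691 to 25069044.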
